A study of Rattus norvegicus with 8 samples.

Results

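The genes described here are 36 broad leukocyte and myeloid genes, named by their role in blood-derived cells and followed in rat liver under 4 treatments. A gene was measured where the array annotation gives a probe set that single gene symbol, and the probe set with the highest mean over the 8 arrays stood for the gene. That gave 34 of the 36 genes, from 41 probe sets among 31042 tested, and 14217 genes in all had such a probe set. Spi1, the myeloid transcription factor PU.1, and Msr1, a macrophage scavenger receptor, were not analysed here. Male Sprague-Dawley rats of 180 to 200 g received 2 injections. One group had dexamethasone, a synthetic glucocorticoid, at 1.5 mg/kg into muscle together with AICAR, a nucleoside used to activate the kinase AMPK, at 0.7 g/kg into the peritoneum; it is called the combination below. The second had dexamethasone at that dose with saline into the peritoneum, the third had AICAR at that dose with saline into muscle, and vehicle rats had saline at both sites. Whole livers were taken at 8 h in every group, and each group has 2 arrays. Nothing in the labels says that the 2 arrays of a group are separate animals. The p-values therefore cover only array-to-array spread within groups, and that spread may be technical.

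Leukocytes in liver include Kupffer cells, which are resident macrophages of the sinusoids, together with monocytes, neutrophils and lymphocytes from blood. The genes chosen here encode machinery that many of these cells share: the surface phosphatase CD45 and integrins, adaptors that carry signals from Fc receptors, kinases and small GTPases, actin-binding proteins, the phagocyte NADPH oxidase, lysosomal proteins and receptors for microbial products. Some are also active outside leukocytes, as with Fcgr2b and Mrc1 in liver sinusoidal endothelium. Because whole liver was measured, fewer cells of a type and less RNA per cell cannot be told apart in any result below.

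All values are deposited RMA levels on a log2 scale, so a difference of 1 is a factor of 2. A change is a difference of group means with the standard error (SE) of a limma fit over all 8 arrays, and a gene was called where its Benjamini-Hochberg adjusted p over the 31042 probe sets was under 0.05. Arrays of a group correlated at 0.997 to 0.998 over all probe sets, and arrays of different groups at 0.979 to 0.993. No array stood apart from its group. The 3′ minus 5′ difference of the actin control probe sets, a sign of RNA quality, was 1.77 and 1.83 after the combination, 2.04 and 2.03 after dexamethasone, 1.84 and 1.79 after AICAR and 2.26 and 2.20 after vehicle. That of the GAPDH probe sets was 0.31 and 0.34 after the combination, 0.43 and 0.40 after dexamethasone, 0.41 and 0.37 after AICAR and 0.61 and 0.60 after vehicle. Vehicle was highest by both measures and the combination lowest by GAPDH, and the part of RNA quality in the results was not tested.

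Promoter sequence is shown for 4 members that stand for 3 kinds of change: Cybb and Ctss, which fell deeply after the combination, Cd14, which fell less after the combination than after dexamethasone, and Lyz2, which rose. Each run is the 250 bases before the RefSeq gene start in build GRCr8, read 5′ to 3′ on the gene's strand. Capitals mark the motif searched. In Cybb (chrX:16065066-16065315, minus strand) this is a composite of an ETS and an IRF site, here on the opposite strand. In Ctss (chr2:185775146-185775395, plus strand) and Cd14 (chr18:28611159-28611408, minus strand) it is the PU.1 core GAGGAAG, on the opposite strand in Ctss and at 2 places in Cd14. In Lyz2 (chr7:54798012-54798261, minus strand) it is AGAACA, the hexamer that 1 glucocorticoid receptor subunit recognises.
Cybb: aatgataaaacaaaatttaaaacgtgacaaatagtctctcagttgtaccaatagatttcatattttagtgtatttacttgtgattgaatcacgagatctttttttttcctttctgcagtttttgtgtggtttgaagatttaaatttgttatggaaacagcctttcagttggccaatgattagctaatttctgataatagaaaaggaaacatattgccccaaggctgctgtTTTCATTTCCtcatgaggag
Ctss: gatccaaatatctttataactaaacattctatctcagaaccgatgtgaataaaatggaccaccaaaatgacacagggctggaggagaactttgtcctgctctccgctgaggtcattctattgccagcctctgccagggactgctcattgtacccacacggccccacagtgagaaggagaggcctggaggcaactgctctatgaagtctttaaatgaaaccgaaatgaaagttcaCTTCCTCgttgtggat
Cd14: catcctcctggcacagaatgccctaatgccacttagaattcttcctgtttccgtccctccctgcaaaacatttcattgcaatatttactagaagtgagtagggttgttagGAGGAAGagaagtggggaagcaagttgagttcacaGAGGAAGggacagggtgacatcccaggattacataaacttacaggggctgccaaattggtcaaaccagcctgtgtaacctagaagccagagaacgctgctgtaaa
Lyz2: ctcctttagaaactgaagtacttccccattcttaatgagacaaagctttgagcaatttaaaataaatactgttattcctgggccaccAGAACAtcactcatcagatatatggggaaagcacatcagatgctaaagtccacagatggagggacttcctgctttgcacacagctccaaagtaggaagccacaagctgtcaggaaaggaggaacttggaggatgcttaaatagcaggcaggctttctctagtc
RefSeq promoters matched 20 of the members, and both strands were searched. GAGGAAG was in 9 of the 20 (45%), against 10.2% of all 33469 promoters of this length, and those 9 were Cd37, Itgam, Ctss, Cd53, Tlr4, Laptm5, Vav1, Mrc1 and Cd14. The ETS-IRF composite was in 1 (5%, against 2.48%). AGAACA was in 3 (15%, against 17.5%), which were Cd53, Lyz2 and Ncf1, and the full palindromic glucocorticoid response element, which holds that hexamer, in 0 (against 0.012%). A match is a string of letters and not a shown binding site. The 9 promoters with GAGGAAG belong to genes as unlike in their changes as Ctss and Itgam.

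After the combination the leukocyte genes were lower by very unequal amounts. Aif1, Cybb, Ctss and Fcer1g were 7.6-fold to 21.5-fold lower than after vehicle, while Itgam, Lyn, Vav1 and Cx3cr1 were not called. The first 4 had vehicle means of 7.92 to 9.81. Those 4 not called had 5.12 to 5.84, near the array medians of 5.22 to 5.26. Fcgr2b and Ptpn6, with vehicle means of 10.00 and 7.26, were not called either. Over the 34 genes vehicle level and change correlated at r = -0.36. The part of signal level in these differences was not tested. Of the 34 genes 25 fell, 2 rose and 7 were not called against vehicle. Of all probe sets 13.6% were called lower and 13.3% higher. Of all 14217 genes, taken by 1 probe set each as the members were, 18.4% were called lower and 15.9% higher. The median change of the 34 was -0.95, with a range of -4.42 to 0.58 and an SD of 1.14, against a median of 0.01 and an SD of 0.43 over all probe sets. After dexamethasone alone 26 fell and 1 rose, against 9.77% and 8.67% of all probe sets and 14.3% and 8.37% of all genes. The median was -0.60, the range -1.70 to 0.32 and the SD 0.48. After the combination 16 fell 2-fold or more (1.93% of all probe sets), and after dexamethasone 10 did (1.01%). The 2-fold shares here and below are over all probe sets. None was taken over genes with 1 probe set each, so they are not like for like with the members. These comparisons share the vehicle arrays. The mean level of the 34 genes was 5.91 and 5.93 on the combination arrays, 6.43 and 6.48 on the dexamethasone arrays, 7.27 on each AICAR array, and 7.14 and 7.16 on the vehicle arrays.

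**Figure D1:**
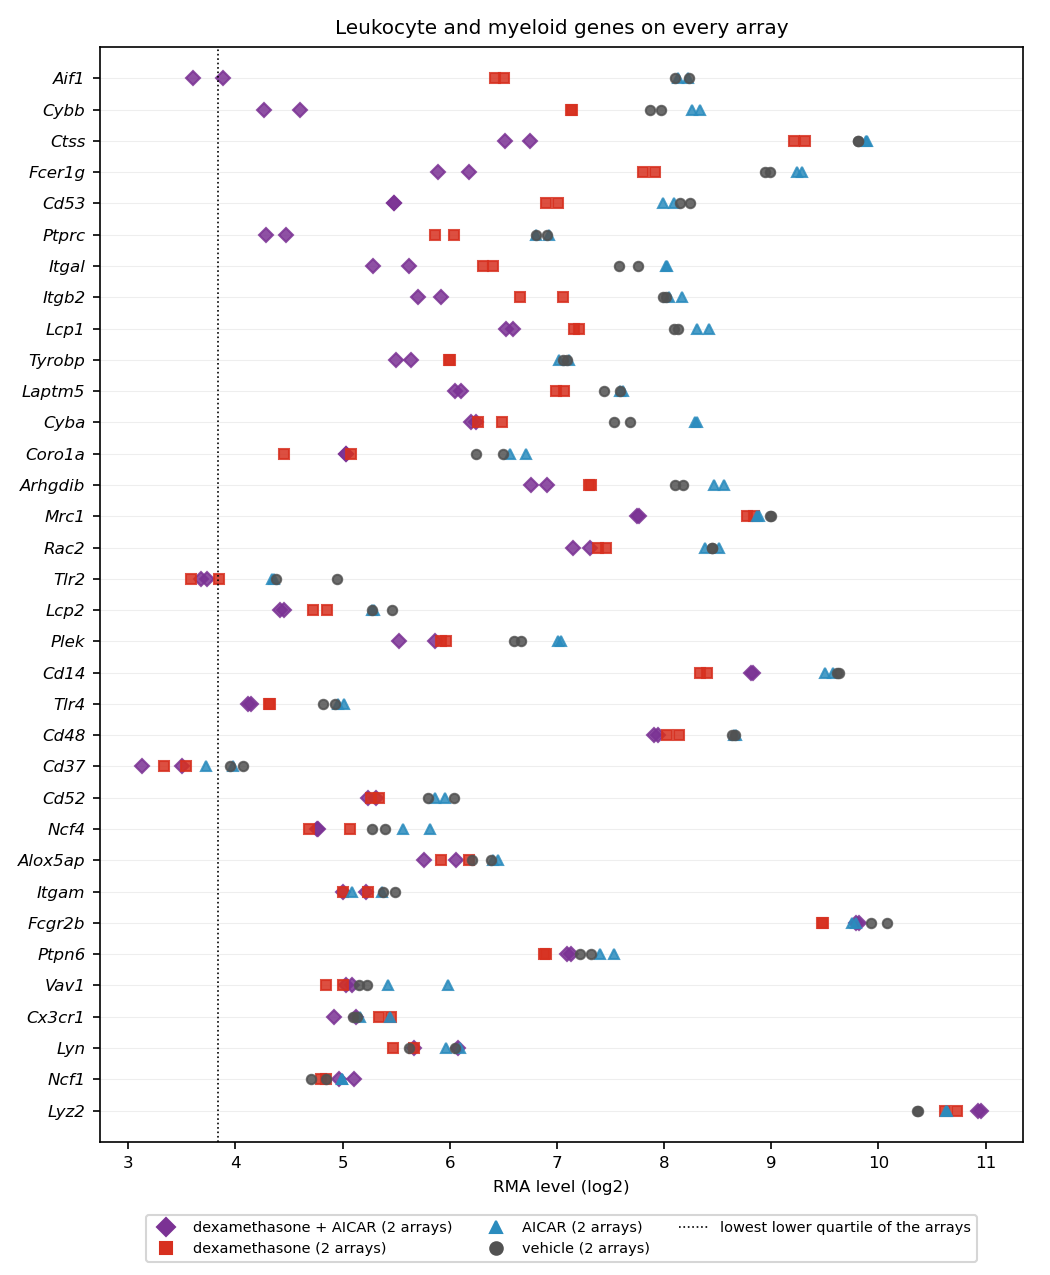
RMA level (log2) of each of the 34 genes on every array, with genes ordered by their change after the combination and 2 points per group. Combination arrays lie far to the left for Aif1 (3.88 and 3.60) and Cybb (4.27 and 4.60), near the other groups for Itgam and Lyn, and to the right for Lyz2 (10.96 and 10.93); the dotted line is the lowest lower quartile of the arrays (3.84).

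Among the 8 surface proteins, 7 fell after the combination and 7 after dexamethasone, with medians of -1.46 and -0.76. Ptprc encodes CD45, the tyrosine phosphatase on all nucleated blood cells. Its level was 4.29 and 4.47 after the combination, 6.04 and 5.86 after dexamethasone, 6.80 and 6.92 after AICAR, and 6.91 and 6.80 after vehicle. The combination arrays were lowest and the dexamethasone arrays intermediate, with no overlap, whereas AICAR and vehicle overlapped. The change was -2.48 ± 0.10 after the combination (adjusted p = 5.62e-07) and -0.90 ± 0.10 after dexamethasone (adjusted p = 0.000357). The dimmer probe set of Ptprc changed by -0.98 ± 0.09 after the combination, so the size of the fall depends on the probe set by more than 1.5 times.

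Cd53, a tetraspanin of leukocytes, read 5.48 on both combination arrays, 6.89 and 7.01 after dexamethasone, 7.99 and 8.09 after AICAR, and 8.15 and 8.24 after vehicle. The combination arrays were below all others, and the dexamethasone arrays came next. Its change after the combination was -2.71 ± 0.08 (adjusted p = 1.35e-07). The integrin chains differed among themselves. Itgal (the alpha chain of LFA-1) fell by 2.22 and Itgb2 (the beta chain it shares with Mac-1) by 2.20 after the combination, both with adjusted p under 0.05 (3.03e-06 and 6.63e-06). Itgam, the alpha chain of Mac-1 on monocytes, neutrophils and macrophages, was not called (-0.32 ± 0.13, adjusted p = 0.0977). Cd48, a ligand of lymphocyte receptors, fell by 0.72, Cd37, another tetraspanin, by 0.69, and Cd52, a small lipid-anchored glycoprotein, by 0.64. After dexamethasone they fell by 0.56, 0.57 and 0.62, and none of the 3 was called between the combination and dexamethasone. Cd37 lay near the low end of the scale in all groups, so its size is uncertain, and its dexamethasone call was lost without either vehicle array or dexamethasone replicate 2 (adjusted p up to 0.129).

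Both adaptors that bear ITAM signalling motifs fell, and the inhibitory Fc receptor was not called after the combination. Fcer1g, the common gamma chain of activating Fc receptors, read 5.89 and 6.18 after the combination, 7.80 and 7.92 after dexamethasone, 9.24 and 9.29 after AICAR, and 8.94 and 8.99 after vehicle. All 4 groups were separate, with AICAR highest, although the AICAR change of 0.30 ± 0.10 was not called (adjusted p = 0.0897; called in 2 of 15 alternatives). Fcer1g fell by 2.93 after the combination (SE 0.10, adjusted p = 2.86e-07) and by 1.10 after dexamethasone (adjusted p = 0.000134). Tyrobp, the adaptor DAP12 of myeloid and NK cell receptors, read 5.64 and 5.50 after the combination, 5.99 and 6.0 after dexamethasone, 7.11 and 7.02 after AICAR, and 7.05 and 7.09 after vehicle. Here the dexamethasone arrays were closer to the combination arrays than to the vehicle arrays. The changes against vehicle were -1.5 ± 0.08 after the combination and -1.07 ± 0.08 after dexamethasone. Tyrobp was still called lower after the combination than after dexamethasone (-0.43 ± 0.08, adjusted p = 0.00532).

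Fcgr2b, the inhibitory receptor for IgG, read 9.79 and 9.82 after the combination, 9.48 and 9.47 after dexamethasone, 9.76 and 9.79 after AICAR, and 10.08 and 9.93 after vehicle. The combination arrays lay at the AICAR level and above the dexamethasone arrays. Fcgr2b fell after dexamethasone (-0.53 ± 0.08, adjusted p = 0.00176), and its change after the combination was -0.20 ± 0.08 (adjusted p = 0.092), called in 2 of 15 alternatives.

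Of 7 members that carry signals inside the cell, 4 fell after the combination: Arhgdib, a GDP dissociation inhibitor of blood cells (-1.30), Rac2, a GTPase of blood cells that serves the oxidase (-1.22), Lcp2, the adaptor SLP-76 (-0.94), and Plek, a protein kinase C substrate (-0.94). After dexamethasone 5 fell, the 4 just named by 0.58 to 1.02 and Ptpn6, the phosphatase SHP-1, by 0.37. Leaving out vehicle replicate 2 ended the Ptpn6 call (adjusted p = 0.0781), as did leaving out dexamethasone replicate 1 (adjusted p = 0.0536). Ptpn6 changed by -0.15 ± 0.08 after the combination (adjusted p = 0.219). Vav1, an exchange factor for Rac, changed by -0.13 ± 0.16 (adjusted p = 0.623). Lyn, a Src family kinase, read 6.08 and 5.67 after the combination, 5.47 and 5.66 after dexamethasone, 6.09 and 5.96 after AICAR, and 5.62 and 6.05 after vehicle. The vehicle arrays overlapped every other group for Lyn, and none of its changes was called. A second probe set of Lcp2 also fell after the combination (-0.95, adjusted p = 0.0013) but was not called after dexamethasone (-0.41, adjusted p = 0.084).

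The 3 actin-binding or calcium-binding members all fell after the combination and after dexamethasone. Aif1, which encodes the macrophage protein Iba1, read 3.88 and 3.60 after the combination, 6.43 and 6.51 after dexamethasone, 8.13 and 8.22 after AICAR, and 8.23 and 8.10 after vehicle. The combination arrays were lowest by a wide gap, the dexamethasone arrays intermediate, and AICAR and vehicle overlapped. Its change after the combination was -4.42 ± 0.10, 21.5-fold (adjusted p = 5.27e-08), the deepest among the members. The combination mean of 3.74 was under the lower quartile of each array, where a fall is sized less exactly. A second Aif1 probe set read 5.63 after the combination and 5.68 after vehicle and was not called. Lcp1, the actin bundler L-plastin, fell by 1.56 after the combination and by 0.93 after dexamethasone. Coro1a, coronin 1A, changed by -1.34 after the combination and by -1.60 after dexamethasone, both called, and the difference between those groups was not called (0.26 ± 0.18, adjusted p = 0.376).

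The 4 subunits of the phagocyte NADPH oxidase, which makes superoxide, did not move together. Cybb, the catalytic subunit, read 4.27 and 4.60 after the combination, 7.13 and 7.14 after dexamethasone, 8.26 and 8.34 after AICAR, and 7.97 and 7.87 after vehicle. All groups were separate and the gap between the combination and dexamethasone was the widest. Cybb fell by 3.49 after the combination (SE 0.11, 11.2-fold, adjusted p = 1.95e-07) and by 0.78 after dexamethasone (adjusted p = 0.00135). Its dimmer probe set changed by -0.95 ± 0.12 after the combination, over 1.5 times less, and was not called after dexamethasone (-0.20, adjusted p = 0.278). Cyba, the membrane partner of Cybb and active in many cell types, fell by nearly equal amounts after the combination (-1.39 ± 0.09) and dexamethasone (-1.23 ± 0.09). Ncf4, a cytosolic subunit, fell by 0.57 after the combination and by 0.45 after dexamethasone, and the call was lost in 3 and 8 of 15 alternatives to the analysis settings.

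Ncf1, the cytosolic organizer subunit, read 5.11 and 4.96 after the combination, 4.80 and 4.84 after dexamethasone, 5.00 and 5.00 after AICAR, and 4.84 and 4.71 after vehicle. The combination arrays were above both vehicle arrays by a margin near the spread within groups. The change was 0.26 ± 0.08 (adjusted p = 0.0475), and the call was lost in 12 of 15 alternatives, including leaving out any 1 of the 8 arrays.

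Lysosomal members split. Ctss, cathepsin S, which trims the MHC class II invariant chain, read 6.52 and 6.75 after the combination, 9.22 and 9.32 after dexamethasone, 9.90 and 9.89 after AICAR, and 9.81 on both vehicle arrays. The dexamethasone arrays were nearer to vehicle than to the combination. Ctss fell by 3.17 after the combination (SE 0.09, adjusted p = 1.21e-07) but by only 0.54 after dexamethasone (adjusted p = 0.00376). Laptm5, a lysosomal membrane protein of blood cells, fell by 1.43 after the combination and by 0.48 after dexamethasone. Its dimmer probe set fell further, with changes of -1.79 after the combination and -0.87 after dexamethasone (adjusted p = 1.11e-06 and 0.000135), the second over 1.5 times as large. Lyz2, lysozyme, which macrophages, monocytes and neutrophils make, read 10.96 and 10.93 after the combination, 10.62 and 10.73 after dexamethasone, 10.64 and 10.63 after AICAR, and 10.36 and 10.37 after vehicle. The combination arrays were highest and vehicle lowest, without overlap. Lyz2 rose by 0.58 ± 0.07 after the combination (adjusted p = 0.000455), and this call held in all 15 alternatives. The rise after dexamethasone (0.32 ± 0.07, adjusted p = 0.017) lost its call in 4 of 15.

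All 4 measured pattern and scavenger receptors fell after the combination, by 0.75 to 1.24. Cd14, the co-receptor for lipopolysaccharide, read 8.83 and 8.81 after the combination, 8.34 and 8.40 after dexamethasone, 9.51 and 9.58 after AICAR, and 9.61 and 9.63 after vehicle. Dexamethasone arrays were lowest, and the combination arrays lay between them and the AICAR arrays. Cd14 changed by -0.80 ± 0.07 after the combination (adjusted p = 6.41e-05) and by -1.25 ± 0.07 after dexamethasone (adjusted p = 8.55e-06). Tlr4, the lipopolysaccharide receptor, fell by 0.75 after the combination and by 0.56 after dexamethasone. Tlr2, a receptor for bacterial lipopeptides, fell by 0.95 after each, and its means of 3.71 after the combination and 3.72 after dexamethasone were also under each lower quartile, which limits how far those falls can be compared. Mrc1, the mannose receptor, fell after the combination (-1.24 ± 0.07, adjusted p = 4.15e-06), and its change after dexamethasone was -0.19 ± 0.07 (adjusted p = 0.0963), called in 1 of 15 alternatives.

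The chemokine receptor and the leukotriene gene were not called against vehicle. Cx3cr1, the fractalkine receptor of monocytes, read 4.92 and 5.12 after the combination, 5.45 and 5.34 after dexamethasone, 5.44 and 5.16 after AICAR, and 5.10 and 5.14 after vehicle. The combination and vehicle overlapped. Alox5ap, which presents arachidonic acid to 5-lipoxygenase, changed by -0.38 ± 0.13 after the combination (adjusted p = 0.0531). It was called in 6 of 15 alternatives, with adjusted p from 0.014 under the replicate block to 0.306 without combination replicate 1.

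**Figure D2:**
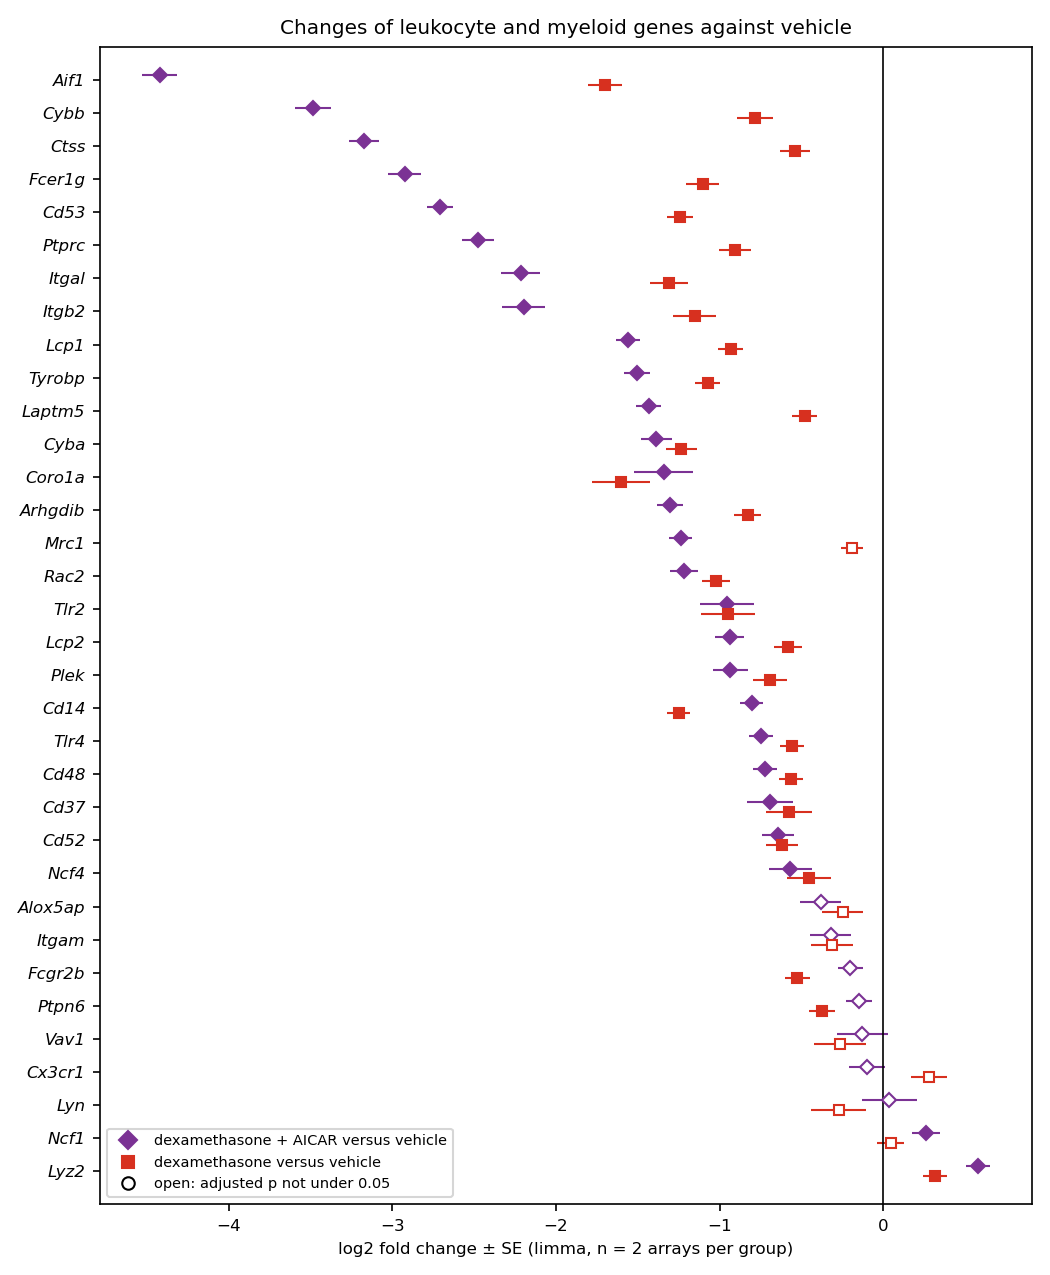
Change of each of the 34 genes against vehicle (log2 fold change ± SE, limma, n = 2 arrays per group), after the combination (diamonds) and after dexamethasone (squares); open symbols were not called. The 2 series lie close together for Cd52 and Rac2 and far apart for Aif1, Cybb and Ctss, where the combination reached -4.42, -3.49 and -3.17.

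The combination was compared with dexamethasone to ask what AICAR added in the presence of the glucocorticoid. Of the 34 genes 15 were lower after the combination and 3 higher, with a median difference of -0.19. The shares were 9.91% and 10.2% of all probe sets and 11.3% and 14% of all genes. Of the lower genes 8 differed by 2-fold or more (1.05% of all probe sets). The lower genes were led by Aif1 (-2.72 ± 0.10), Cybb (-2.70 ± 0.11), Ctss (-2.63 ± 0.09) and Fcer1g (-1.82 ± 0.10). The second probe set of Aif1 was not called here (-0.04 ± 0.09), and that of Cybb differed by less (-0.75 ± 0.12, adjusted p = 0.00212). The 3 higher genes were Cd14 (0.45 ± 0.07, adjusted p = 0.00261), Fcgr2b (0.33 ± 0.08, adjusted p = 0.0177) and Lyz2 (0.26 ± 0.07, adjusted p = 0.0348). The call of Cd14 held in all 15 alternatives, that of Fcgr2b was lost on leaving out any 1 of the 4 arrays compared, and that of Lyz2 was lost in 9 of 15. Against AICAR alone, 28 genes were lower after the combination and 1, Lyz2, was higher, with a median of -1.02. The shares were 14.9% and 15.9% of all probe sets and 19.4% and 18.7% of all genes. By 2-fold or more 17 members were lower (1.9% of all probe sets).

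AICAR alone left most of these genes near vehicle. No member was called lower, 4 rose and 30 were not called. Of all probe sets 7.47% were called lower and 5.45% higher, and of all genes 8.96% and 6.22%. By 2-fold 0 of the 34 fell (0.283% of all probe sets). At an unadjusted p under 0.05, 1 member was lower and 12 were higher. The share of all probe sets at that threshold was not taken, so these counts have no background. The median change was 0.10, with a range of -0.31 to 0.69. Cyba read 8.29 and 8.31 after AICAR and 7.54 and 7.68 after vehicle, a rise of 0.69 ± 0.09 (adjusted p = 0.00296) that held in all 15 alternatives. A dim second probe set of Cyba was not called. The other 3 rises were small: Plek 0.39 ± 0.11, Arhgdib 0.37 ± 0.08 and Lyz2 0.27 ± 0.07, with adjusted p of 0.0452, 0.0206 and 0.0442. Each of these 3 lost its call on leaving out any 1 of the 4 arrays compared, with adjusted p over all 15 alternatives reaching 0.176 for Plek, 0.108 for Arhgdib and 0.172 for Lyz2. Cybb, which missed the threshold on its main probe set (0.38 ± 0.11, adjusted p = 0.0535) and passed it in 8 of 15 alternatives, was called on its dimmer one (0.49, adjusted p = 0.0269).

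The dexamethasone effect was then compared between rats with AICAR (combination minus AICAR) and rats without (dexamethasone minus vehicle), as the interaction term of the same fit. These effects use separate arrays. By sign alone, the effect was more negative with AICAR in 27 of the 34 genes, and the share over all genes was not taken. The median interaction was -0.40 over the 34, against -0.01 over all probe sets and 0.01 over all genes. The interaction was called below 0 in 16 and above 0 in 2. The shares were 7.02% and 8.63% of all probe sets and 8.05% and 11.9% of all genes. In 9 members the interaction was below by 2-fold or more (1.31% of all probe sets). Cybb fell by 3.87 with AICAR and by 0.78 without (interaction -3.09 ± 0.15, adjusted p = 9.06e-06). On its dimmer probe set the interaction was -1.24 ± 0.16 (adjusted p = 0.00155). Ctss fell by 3.26 with AICAR and by 0.54 without (interaction -2.72 ± 0.13, adjusted p = 6.81e-06). Aif1 changed by -4.43 with AICAR and by -1.70 without (interaction -2.73 ± 0.15, adjusted p = 1.4e-05), and its second probe set showed no call (-0.05 ± 0.12). Fcer1g fell by 3.23 with AICAR and by 1.10 without (interaction -2.12 ± 0.14, adjusted p = 4.64e-05).

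In 2 genes the interaction was called above 0, so the fall was smaller with AICAR or absent. Cd14 fell by 0.72 with AICAR and by 1.25 without (interaction 0.53 ± 0.10, adjusted p = 0.00945). Fcgr2b changed by 0.03 with AICAR and by -0.53 without (interaction 0.56 ± 0.11, adjusted p = 0.0104). Both calls held in all 14 alternatives. The calls of Plek, Tyrobp and Cx3cr1 were each lost in 7 of 14. The other 16 genes had no called interaction, among them Coro1a (-0.01 ± 0.25), Cd52 (-0.01 ± 0.14) and Ptpn6 (0.02 ± 0.11). Over the 34 genes the effects with and without AICAR correlated at r = 0.68, a description over genes that share arrays, normalization and cell sources.

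**Figure D3:**
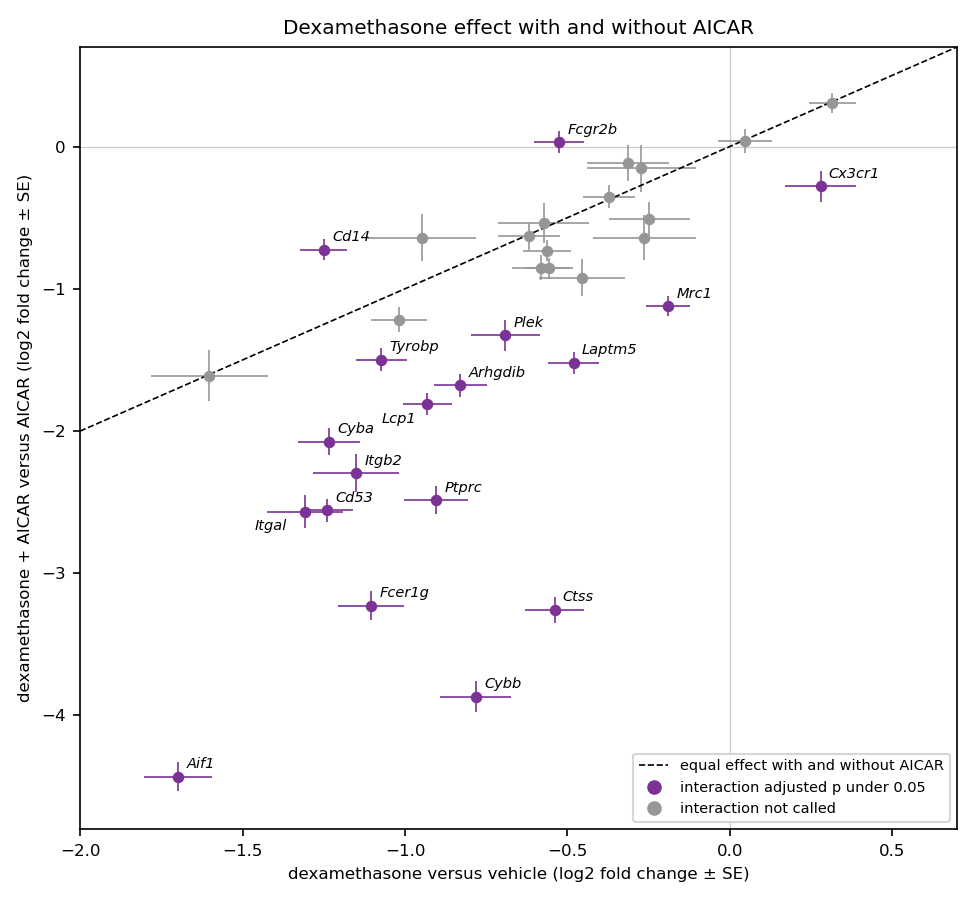
Effect of dexamethasone with AICAR (vertical) against its effect without AICAR (horizontal), both as log2 fold change ± SE for 34 genes; the dashed line marks equal effects. Of the 18 named genes with a called interaction, 16 lie below the line, farthest for Cybb, Aif1 and Ctss, and Cd14 and Fcgr2b lie above it.

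Whether the genes fell evenly was asked by taking each gene relative to Ptprc on the same array, over the 33 other members. After the combination 4 fell further than Ptprc: Aif1 (by -1.94 relative to Ptprc), Cybb (-1.01), Ctss (-0.70) and Fcer1g (-0.45). For Aif1 and Cybb this holds only on their brighter probe sets, since the second ones changed by -0.05 and -0.95, less than Ptprc (-2.48). Another 26 were above it, and Cd53, Itgb2 and Itgal were not called different from it. Over all probe sets 0.158% were called below Ptprc and 99.7% above, since Ptprc itself fell and most probe sets changed little. For dexamethasone alone 6 members were below, 17 above and 10 not called (0.648% and 96.8% of all probe sets). Between the combination and dexamethasone, Aif1, Cybb and Ctss were below, 28 above and 2 not called (0.232% and 99.4%). There too Aif1 and Cybb rest on their brighter probe sets, since the second ones changed by -0.04 and -0.75, less than Ptprc (-1.57).

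Every such ratio carries the error of Ptprc, so moderating the variance over probe sets makes these p-values too small, and an ordinary linear model was added after seeing the data. With it the counts after the combination were again 4 below, 26 above and 3 not called (0.135% and 99.6% of all probe sets), with adjusted p of 0.000546 for Aif1, 0.000397 for Cybb, 0.00419 for Ctss and 0.0237 for Fcer1g. For dexamethasone they became 2 below (Aif1 and Cd14), 12 above and 19 not called (0.509% and 93.7%), and between the combination and dexamethasone 3, 27 and 3 (0.184% and 99.2%). The choice of yardstick also counted. Set against Itgb2 and against the dimmer Ptprc probe set as well, Ctss, Fcer1g and, on their brighter probe sets, Aif1 and Cybb were below all 3 yardsticks. Above all 3 were Itgam, Lyn, Ncf1, Ncf4, Vav1, Ptpn6, Cd52, Lyz2, Cx3cr1, Alox5ap and Fcgr2b. The shares of all probe sets below or above all 3 were not taken. All 3 yardsticks fell, so a gene that changed little lies above them by default. The calls against Itgb2 and the dimmer Ptprc probe set came only from the moderated fit, so their p-values are too small. The smallest gaps above were 0.41 for Ncf4 and 0.33 for Cd52, both over the dimmer Ptprc probe set. On their second probe sets Aif1 and Cybb fell less than Itgb2 and the main Ptprc probe set. Against the dimmer Ptprc probe set (-0.98), that of Cybb was nearly equal (-0.95) and that of Aif1 fell less (-0.05). These differences were not tested. The other 17 of the 32 members so compared depended on the yardstick.

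Other genes of the same pathways, listed by role and not counted above, changed as follows after the combination against vehicle. Over all 14217 genes 18.4% were called lower and 15.9% higher in that comparison. Of 13 genes of Fc receptor and ITAM signalling 8 fell, with a median of -0.43, including the activating receptors Fcgr3a (-2.51 ± 0.08) and Fcgr1a (-2.03 ± 0.12) and the kinase Fgr (-1.0 ± 0.07). Of 6 leukocyte actin regulators 5 fell, with Fyb1, an adaptor bound by SLP-76, at -2.47 ± 0.08 and Wipf1, a partner of the Wiskott-Aldrich protein, at -1.19 ± 0.08. Of 4 leukotriene genes 3 fell, with Pla2g4a, which frees arachidonic acid, at -1.99 ± 0.14 and Ltc4s, leukotriene C4 synthase, at -1.71 ± 0.12. Of 6 myeloid transcription factors 3 fell and 1 rose, with Irf8, needed for monocyte and dendritic cell development, at -1.28 ± 0.12 and Runx1 at -0.81 ± 0.17.

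Of 8 lysosomal and antigen-processing genes 5 fell and 1 rose, with Lgmn, the protease legumain, at -0.88 ± 0.07 and Ctsl, cathepsin L, at 0.49 ± 0.07. Of 5 pattern receptors and adaptors 3 fell, led by Tlr7 (-0.67 ± 0.10), and of 5 scavenger receptors 2 fell, Cd36 (-1.20 ± 0.11) and Stab1 (-1.02 ± 0.10). Of 6 adhesion genes 2 fell, Fermt3, the integrin activator kindlin-3 (-0.83 ± 0.09), and Icam2 (-0.78 ± 0.11). Of 2 other NADPH oxidase genes 1 fell, Rac1 (-0.21 ± 0.07).

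Markers of single cell types are given for comparison. After the combination 18.4% of all 14217 genes were called lower and 15.9% higher than after vehicle. Some lists fell as the members did and others did not, and their part in the members' changes was not tested. All 11 Kupffer cell markers fell after the combination, with a median of -3.92, led by the lipid-binding protein Cd5l (-6.68 ± 0.07), the lectin Clec4f (-5.13 ± 0.09) and the complement chain C1qa (-4.77 ± 0.09). Their mean level was 4.83 and 4.88 after the combination, 7.55 and 7.70 after dexamethasone, 8.74 and 8.70 after AICAR, and 8.63 and 8.62 after vehicle. Of 9 neutrophil markers none fell and 4 rose after the combination, with the decoy receptor Il1r2 at 1.48 ± 0.11 and the calprotectin chains S100a8 at 1.45 ± 0.17 and S100a9 at 1.05 ± 0.09. Their mean was 4.57 and 4.56 after the combination, 3.83 and 3.81 after dexamethasone, 4.45 and 4.36 after AICAR, and 4.09 and 4.12 after vehicle. After dexamethasone alone S100a8 changed by -1.09 ± 0.17 and S100a9 by -1.14 ± 0.09. The called Kupffer cell markers were all lower after the combination and the called neutrophil markers all higher. Of the neutrophil markers 5 were not called, with a median of 0.25. After AICAR alone 4 rose (6.22% of all genes). Against AICAR 3 were higher after the combination (18.7% of all genes), with a median of -0.03. Their means after dexamethasone and vehicle lay near the lowest lower quartile of 3.84, which limits how exactly these changes can be sized.

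Of 8 monocyte markers 1 fell and 2 rose after the combination, near the shares over all genes of 18.4% lower and 15.9% higher. They were Plac8 at -0.70 ± 0.10, Fn1, which hepatocytes also make, at 0.86 ± 0.07 and S100a4 at 0.49 ± 0.09. Of 15 T and NK cell markers 9 fell, with a median of -0.34, led by the granzyme gene Gzma (-2.09 ± 0.16). Of 5 B cell markers 3 fell, led by Ms4a1, CD20 (-1.58 ± 0.13), and of 4 dendritic cell markers 1 fell, Clec9a (-0.84 ± 0.13). Of 6 sinusoidal endothelial markers other than Fcgr2b 4 fell, with Stab2 at -0.93 ± 0.08. Of 9 stellate cell markers 3 fell and 3 rose, and of 5 erythroid markers 3 fell. Of 9 hepatocyte markers 2 fell and 2 rose with a median of -0.01. The hepatocyte and dendritic cell counts are also near the shares over all genes.

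**Figure D4:**
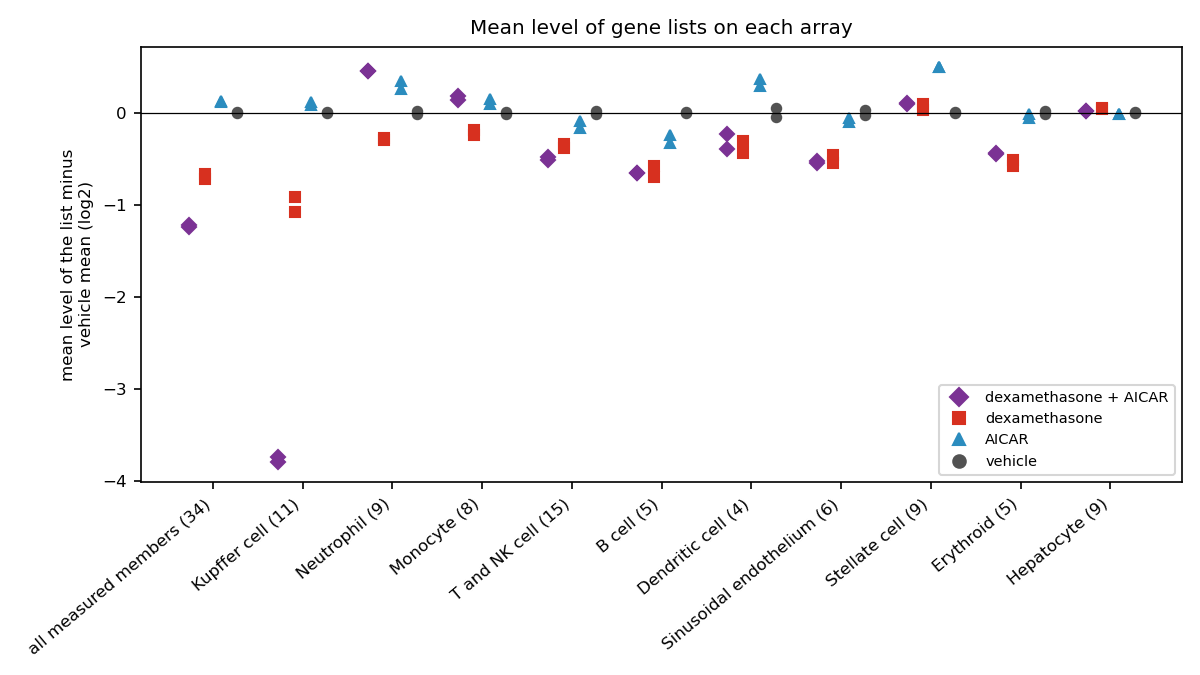
Mean level of each gene list on every array, minus the vehicle mean of that list (log2), with the number of genes in brackets and 2 points per group. The 34 leukocyte and myeloid members lie below vehicle after the combination and after dexamethasone, the Kupffer cell markers far lower after the combination, and the neutrophil markers above vehicle after the combination and below it after dexamethasone.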

How the data were processed

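Total liver RNA was hybridised to 8 Affymetrix rat expression arrays. The authors deposited 1 RMA value per probe set and array, read here as log2 from their range of 1.96 to 14.7, since no log base is stated. The submitters' processing notes name affy and RMA without versions. Intensities before RMA were not used here. Array medians were 5.22 to 5.26, and 2 arrays a group limit the precision. From 31099 probe sets 57 controls were left out. Of the 31042 tested, 20826 had 1 gene symbol in the platform annotation, 436 several and 9780 none. Group means were compared in 1 fit over all arrays with limma 3.58.1 in R 4.3.3 (4 residual and 4.58 prior degrees of freedom). On simulated normal noise with the fitted spread, 35 of 50 probe sets changed by 0.5 were recovered, and 50 of 50 changed by 1. Smaller changes can therefore be missed. An exact permutation test of 2 against 2 arrays cannot go below p = 0.333 and was not used. The members, gene lists and tests were chosen with earlier results of these data known. Values on every array are given for the 6 lowest and 4 highest changes after the combination, Ptprc, Tyrobp, Fcer1g and the called interactions with the 4 smallest p on each side; from other lists at most 3 called genes each are named. Cyba, Itgam and Mrc1 are described outside that rule, after their values were seen. Alternatives were removing dim probe sets, another variance prior, fits of fewer groups, the replicate block, other scalings, the mean of a gene's probe sets, a 2-fold minimum, Itgb2 for Ptprc and leaving out each array.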

Additional observations from a re-analysis of the deposited data

Results flagged for a closer look

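The dexamethasone effect differed between rats with and without AICAR, by the interaction term of the limma fit, in 18 of the 34 genes. The largest such differences (effect with AICAR minus effect without, log2) were -3.09 for Cybb, -2.73 for Aif1, -2.72 for Ctss and -2.12 for Fcer1g. They were -1.58 for Ptprc, -1.32 for Cd53, -1.26 for Itgal, -1.14 for Itgb2 and -1.04 for Laptm5. Smaller ones were -0.93 for Mrc1, -0.88 for Lcp1, -0.85 for Arhgdib, -0.84 for Cyba, -0.64 for Plek, -0.56 for Cx3cr1 and -0.42 for Tyrobp. The difference was above 0 for Cd14 (0.53) and Fcgr2b (0.56). Dimmer second probe sets gave -1.24 for Cybb, -0.95 for Laptm5, -0.48 for Ptprc, -0.33 for Cyba and -0.05 for Aif1, the last 2 not called.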

How the results depend on the processing

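Requiring a 2-fold change left 16 members called after the combination against vehicle, 8 against dexamethasone, 17 against AICAR, 10 after dexamethasone, 0 after AICAR and 9 in the interaction; fewer can pass by construction. For AICAR against vehicle, where 4 were called, a trended and robust prior called 10, cyclic loess 7 and the replicate block 2, and the cause was not tested. The shares of all probe sets called under these settings are not given here, so these counts have no background. Leaving out 1 array gave 25 to 27 for the combination against vehicle, 14 to 17 against dexamethasone, 24 to 29 against AICAR, 23 to 27 for dexamethasone, 1 to 5 for AICAR and 15 to 17 for the interaction. A group left with 1 array was assumed to vary like the others. The AICAR count was 1 without vehicle replicate 2 or AICAR replicate 1 and 2 without vehicle replicate 1 or AICAR replicate 2. The other counts of called members stayed within 1.5 times under the block and the other settings. Deviations of arrays with the same replicate number correlated at -0.04 to 0.16 between groups, so the numbers were not taken to pair the arrays.

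Changes relative to Ptprc after dexamethasone were called in 23 members, in 15 to 23 on leaving out 1 array (15 without vehicle replicate 1), and in 14 with no moderation. Leaving out 1 array gave 29 to 32 for the combination against vehicle and 30 to 31 against dexamethasone. With the other Ptprc probe set, chosen after seeing the data, 19 relative changes turned below 0. After dexamethasone these were Cd37 (-0.026), Cd48 (-0.015), Lcp2 (-0.035) and Tlr4 (-0.0098). After the combination they were Arhgdib (-0.33), Coro1a (-0.37), Cyba (-0.41), Laptm5 (-0.46), Lcp1 (-0.58), Mrc1 (-0.26), Rac2 (-0.24) and Tyrobp (-0.53). Between the combination and dexamethasone they were Arhgdib (-0.047), Itgal (-0.48), Itgb2 (-0.62), Laptm5 (-0.53), Lcp1 (-0.20), Mrc1 (-0.62) and Tyrobp (-0.0016). That probe set fell less than the main one. Of 4208 results for single genes under alternatives, 3949 kept direction and call, 187 lost the call, 53 gained it and 19 reversed. Values below an array's lower quartile, as for Aif1, Tlr2 and Cd37 after the combination, limit how exactly a fall can be sized.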
